A study of Zea mays with 12 samples.

Results

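The drought response of the maize ear leaf was described across all genes, from 4 of the 12 libraries of the series. The ear leaf is the leaf at the node that bears the ear. It was taken at 5 days after pollination from the inbred line B104, from watered plants (control leaf, replicates 1 and 2) and from plants kept under drought stress (drought leaf, replicates 1 and 2). Every group was of the same genotype with no transgene, the plants grew in the field, and each library pooled leaves of several plants, so that the spread between libraries is the spread between pools. The other 8 libraries, from the kernel at the same stage and from the young ear at V9, a vegetative stage before flowering, entered the model fit and served for a short comparison. The members were chosen by tissue and stage alone, and all 26090 genes that passed the filter on low counts were tested.

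A maize leaf fixes carbon by the C4 pathway. In mesophyll cells, phosphoenolpyruvate (PEP) carboxylase captures bicarbonate, and the malate that is formed moves to bundle sheath cells, where NADP-malic enzyme frees the carbon dioxide for Rubisco. In grain filling the ear leaf is a main source of sugar for the ear. In leaves under water deficit, abscisic acid (ABA) closes the stomata and switches on genes for protective proteins, and a leaf that senesces takes its chloroplasts apart and exports the nitrogen.

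Levels are given as CPM (reads of a gene scaled to a common library size, here with edgeR's TMM factors), in the order control 1, control 2, drought 1, drought 2, and changes as log2 fold changes of drought over control with standard errors (SE), all with n = 2 libraries in each treatment. A gene was called higher or lower at an adjusted p under 0.001 in the quasi-likelihood test of edgeR, adjusted by Benjamini-Hochberg, and a change of at least 2-fold, the thresholds of the study. By this rule 1861 genes (7.13% of those tested) were higher and 2397 (9.19%) were lower under drought, 16.3% in either direction. The rise was at least 8-fold for 409 genes and the fall at least 8-fold for 372. For 187 of the higher genes both control libraries had at most 3 counts, and for 104 of the lower genes both drought libraries did. The changes of such genes are given only as lower bounds against a floor of 3 counts in each library. The control and drought values of 17629 tested genes (67.6%) did not overlap, and 4251 of the called genes were among them.

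The libraries were not equally deep. Rounded counts summed to between 5322710 and 5452714 in control 1 and the drought leaves and to 3429339 in control 2. Control 2 was also rich in transcripts of genes whose best Arabidopsis hit lies in the plastid genome. The summed level of these 14 genes was 271, 7673, 109 and 126 CPM. Of these genes 10 were called lower, and without control 2 only GRMZM2G427369 and GRMZM2G448174 were still called, so these genes are not read as a drought response here. The biological coefficient of variation was 0.107 between the control leaves and 0.0186 between the drought leaves. Without control 2, 585 of the called genes were no longer called and none was called in the opposite direction, which left 1549 higher (5.94%) and 2124 lower (8.14%). Scaling by library size alone moved the median change over the whole table, in log2, from -0.03 to 0.28 and the share of higher genes among the calls from 43.7% to 66.4%, with 3099 higher (11.9%) and 1568 lower (6.01%). No called gene was called in the opposite direction under that scaling, and 3429 were still called. Unless stated otherwise, each gene said to have risen or fallen below was also called without control 2 and with library size alone.

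**Figure D1:**
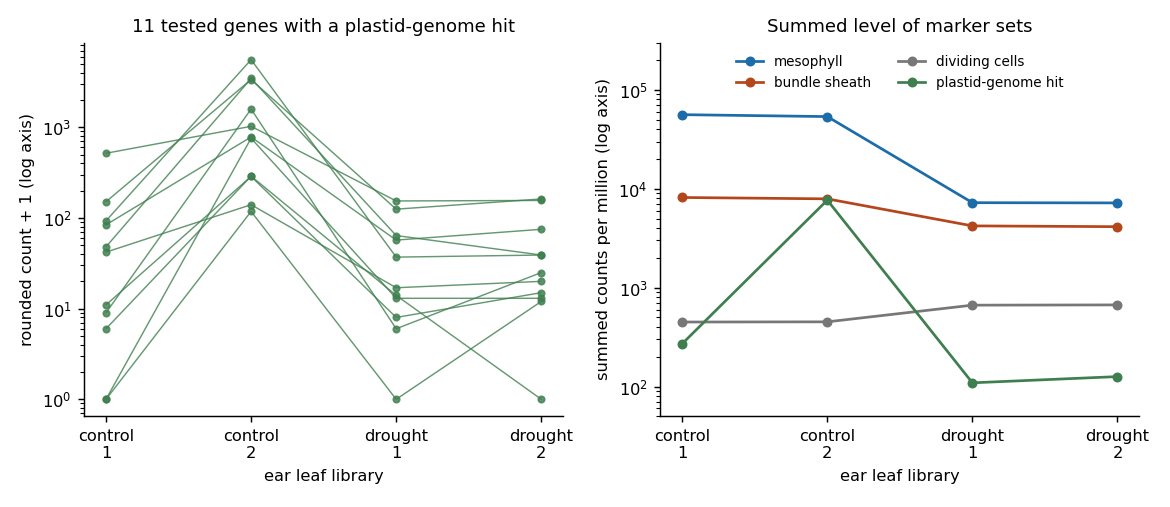
The left panel plots the rounded count plus 1 (log axis) of the 11 tested genes with an Arabidopsis plastid-genome hit in each ear leaf library. Each gene is joined by a line. The right panel plots the summed CPM (log axis) of all 14 genes with such a hit, tested or not, and of 3 marker sets. Control 2 stands above the other 3 libraries for the plastid-hit genes only. The mesophyll sum falls from 56142 and 53682 CPM in the controls to 7229 and 7191 CPM under drought, and the bundle sheath sum from 8159 and 7904 to 4212 and 4135 CPM.

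The labelled tissue was checked against markers. The mesophyll genes pep1, pdk1 and mdh6 and the bundle sheath genes were high in all 4 libraries. Of 24 seed storage and oleosin genes 15 had no count in any ear leaf library and the set summed to at most 3.68 CPM, and of 4 anther genes 3 had none. The 19 genes of dividing cells summed to 449, 451, 665 and 669 CPM, with members on both sides. Of them 2 were called higher, the histone genes his1 and his1a, and 2 lower, the ribonucleotide reductase genes RNRS1 and RNRS2. Mean CPM went from 116 to 305 for his1a and from 59.8 to 6.58 for RNRS1. The part of this small difference of the sums in any result below was not tested. In bulk leaf tissue, fewer cells of a type and less RNA per cell cannot be told apart.

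The mesophyll steps of the C4 pathway were lower under drought. pep1 (GRMZM2G083841), the C4 form of PEP carboxylase, had 29363, 28075, 1518 and 1525 CPM. The replicates lay close together and the treatments far apart, and pep1 differed by -4.24 in log2 (SE 0.04, adjusted p = 3.3e-29). pdk1 (GRMZM2G306345), the pyruvate, phosphate dikinase that remakes PEP, had 24651, 23579, 5036 and 4984 CPM and a log2 fold change of -2.27 (SE 0.04). Per length, pdk1 was the more abundant of the pair in all 4 libraries, with 9903 and 9783 FPKM against 5720 and 5654 FPKM for pep1 in the controls and 2555 and 2514 against 379 and 383 under drought. mdh6 (GRMZM2G129513), the NADP-malate dehydrogenase, fell from 2130 and 2022 to 676 and 683 CPM. pdrp1, which regulates the dikinase, and the plastid dicarboxylate transporters pDCT1 and pDCT2 fell by 1.72, 1.87 and 2.03 on the log2 scale. The bundle sheath enzyme changed less. me3 (GRMZM2G085019), the NADP-malic enzyme, had 5148, 5000, 3566 and 3517 CPM, a log2 fold change of -0.52 (SE 0.05) that is below the 2-fold limit although the treatments did not overlap, and pck2, a PEP carboxykinase, had 175, 190.1, 108 and 108 CPM. Of 11 tested genes of the C4 list 7 were lower and none higher, with a median log2 fold change of -1.87.

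In the Calvin cycle, which makes sugar phosphates from the carbon dioxide released to Rubisco, 6 of 10 tested genes were lower and none higher (median -1.62). gpb1 (GRMZM5G845611), a subunit of the plastid glyceraldehyde phosphate dehydrogenase, had 9382, 8901, 981 and 942 CPM, a fall by 3.25 (SE 0.05). Its partner subunit GAPA (GRMZM2G337113) fell by 2.15. The Rubisco small subunit genes rbcS GRMZM2G098520 and GRMZM2G113033 fell by 2.23 and 1.60, and Rca (GRMZM2G162200), Rubisco activase, from 3041 and 2919 to 868 and 844 CPM. A plastid aldolase annotated as a homolog of FBA2 (GRMZM2G046284) had 11766, 11271, 2865 and 2795 CPM. bss1, with 4948, 4737, 2579 and 2592 CPM, did not reach the 2-fold limit.

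**Figure D2:**
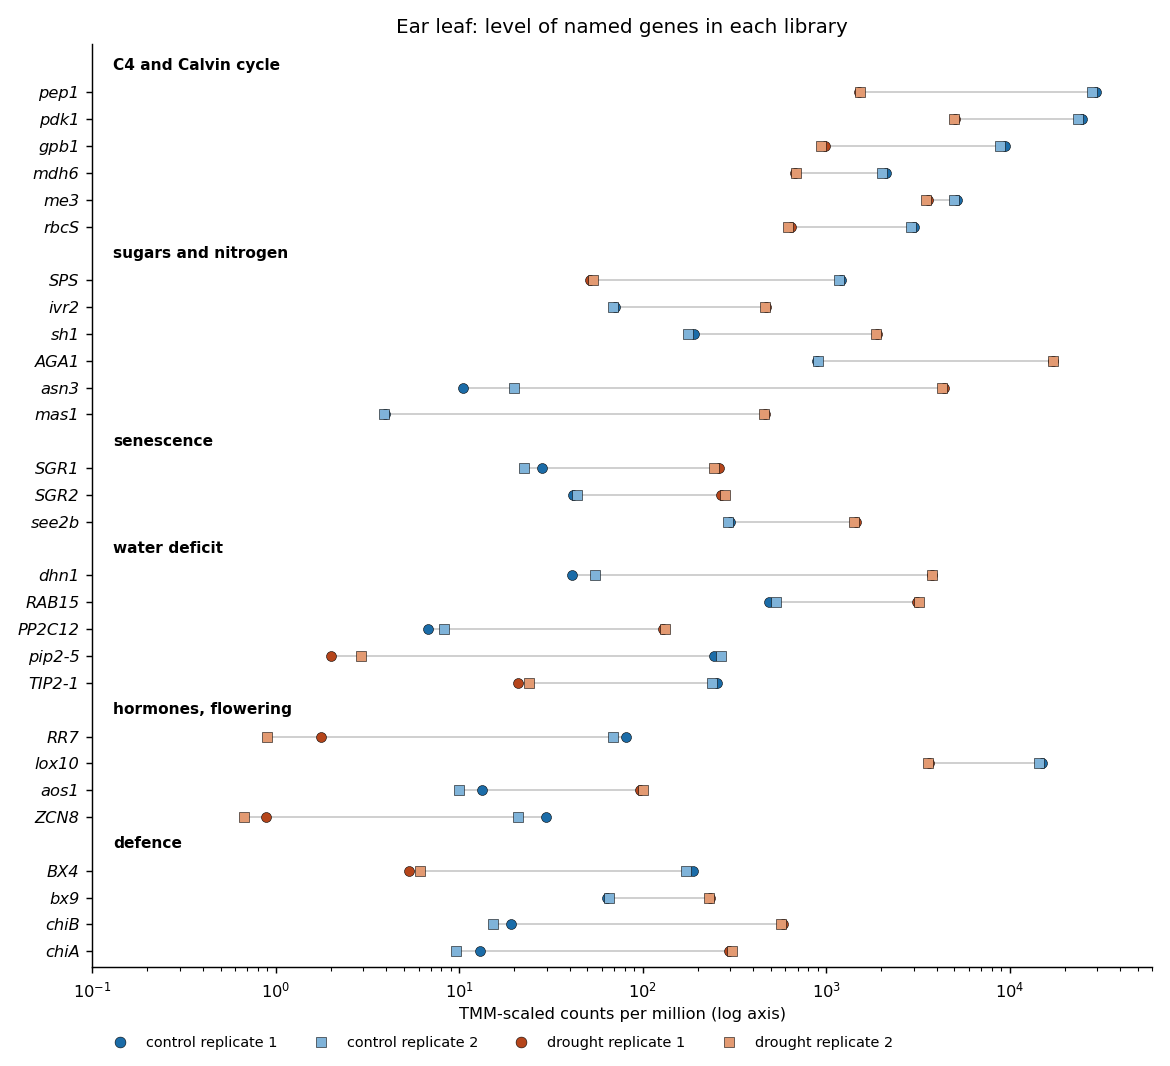
Each point is the level of a gene in 1 ear leaf library, in TMM-scaled CPM on a log axis. Blue marks the controls and brown the drought leaves, circles replicate 1 and squares replicate 2, and a grey line spans each gene's range. In every gene shown the 2 control points and the 2 drought points lie on opposite sides, most closely for me3.

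The light reactions fell with carbon fixation. Of 18 tested genes for light-harvesting and photosystem proteins, 14 were lower and none higher (median -2.11), and 13 were lower with library size alone. The study picked 11 of them as changed in these leaves, so their direction is not independent. The chlorophyll-binding protein gene cab-m1 (GRMZM2G351977) had 1743, 1678, 64.9 and 65.1 CPM, a log2 fold change of -4.72 (SE 0.08). Cab-m7, the most abundant of the family per length in the control leaf, with 6399 and 6230 FPKM, fell by 2.16 on the log2 scale. PSA2 and PSA3, assembly factors of photosystem I that the study does not name, fell by 2.75 and 2.09. On the acceptor side of photosystem I, 9 of 12 genes for ferredoxins, their reductases and cyclic electron flow were lower, 6 of them also with library size alone. fdx5 and FDX1, leaf ferredoxins, fell by 1.91 and 3.16, whereas fdx3 had 377, 339, 417 and 414 CPM.

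Some nuclear genes that direct plastid gene expression were also called lower. All 5 tested genes for plastid sigma factors, which guide the plastid RNA polymerase to its promoters, were called lower, with log2 fold changes from -1.47 for sig3 to -1.04 for sig6. With library size alone only sig2B and sig3 kept the call. The sig2B values stand for 3 identifiers with identical counts. Of 26 genes for plastid RNA binding and splicing proteins 8 were lower and none higher. PPR10 (GRMZM2G177169), which protects plastid transcripts from decay, fell most, from 90.3 and 98.3 to 16.6 and 17.8 CPM. The splicing factors crs1 and CRS2 fell by 1.44 each, and CFM2 and ppr2 by 1.11 and 1.10, the latter pair only with TMM scaling. Of 18 GOLDEN2-like and light regulators 4 were lower, 2 of them without control 2. G2-like1 (GRMZM2G026833), of the GOLDEN2-like family that switches on chloroplast genes, had 111, 105, 15.9 and 19.1 CPM (log2 fold change -2.63, SE 0.16). COL8, of the CONSTANS-like family, fell by 2.25. COL14 (GRMZM2G042198) and PhyB2 were called lower only with control 2.

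Of 21 tested pigment genes 10 were lower, 9 of them without control 2 and 7 with library size alone, and 2 were higher. ChlI (GRMZM2G419806), a subunit of the magnesium chelatase that begins the chlorophyll branch, had 666, 632, 86.3 and 70.2 CPM, a log2 fold change of -3.05 (SE 0.09). por, protochlorophyllide oxidoreductase, and DVR, divinyl reductase, fell by 2.25 and 1.78. In carotenoid synthesis, psy2 (GRMZM2G149317) and PSY1, the phytoene synthases, fell by 2.97 and 1.57, and vp9 (GRMZM2G454928), a carotene desaturase, by 1.66, while another identifier of vp9, GRMZM2G454952, had 205, 201, 200.2 and 208 CPM. One of the higher genes, lls1 (GRMZM2G339563), the oxygenase that opens the ring of the chlorophyll breakdown product and a gene on the study's lists, rose from 119 and 108 to 789 and 788 CPM. The 3 tested genes for vitamin E synthesis all rose. hppd, hydroxyphenylpyruvate dioxygenase, had 297, 265, 1318 and 1302 CPM, VTE2-1, homogentisate phytyltransferase, rose by 1.57, and VTE5, which recycles phytol from chlorophyll, by 1.25.

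Genes for making and for cleaving sucrose were called on opposite sides. SPS (GRMZM5G875238), a sucrose phosphate synthase, had 1199, 1181, 51.9 and 53.6 CPM and a log2 fold change of -4.50 (SE 0.09), and spp1, sucrose phosphatase, was lower by 1.06 with TMM scaling only. The cleaving enzymes were higher. ivr2 (GRMZM2G089836), an acid invertase, had 70.5, 69.2, 471 and 465 CPM, and incw1 (GRMZM2G139300), a cell wall invertase, 175, 183, 608 and 624 CPM. The sucrose synthase sh1 (GRMZM2G089713), which the study lists, rose from 191 and 177 to 1885 and 1874 CPM. Another sucrose synthase, sus1, had 89.4, 94.8, 53.6 and 55.6 CPM and was not called. Of 10 genes in the list 5 were higher and 2 lower. The call of IVR1, another invertase, was lost without control 2.

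In the trehalose pathway, whose sugar phosphate is a signal of sugar status, 8 of 12 tested genes were higher and 3 lower. These genes are known from annotation in the study's tables, and 9 of them were chosen on these leaves. The 3 that fell were the homologs of Arabidopsis TPS1, the catalytic synthase. Of these GRMZM2G001304 had 64.5, 70, 1.99 and 1.58 CPM and GRMZM2G068943 fell by 2.73, while GRMZM2G133966 fell from 28.6 and 22.2 to 0.883 and 0.225 CPM. Among the genes that rose, TPS9 (GRMZM2G122231), a homolog of TPS11, had 32.5, 31.3, 295 and 294 CPM, and TPS7 (GRMZM2G019183), a homolog of TPS6, 14.2, 15.7, 121 and 121 CPM. Neither is on the study's leaf lists. In the raffinose family 3 of 6 genes rose. AGA1 (GRMZM2G340656), an alkaline galactosidase gene that the study lists, had 886, 903, 17215 and 17293 CPM.

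Starch genes gave 2 higher and 5 lower of 22 tested. agpsl1, a small subunit of ADP-glucose pyrophosphorylase, had 364, 328, 60.7 and 59 CPM, and GBSSIIa, a granule-bound starch synthase, 414, 385, 77.3 and 66 CPM. bt2, iso2 and pho1 fell by 1.70, 1.40 and 1.34. Outside this list, GRMZM2G025833, a homolog of the Arabidopsis beta-amylase BAM1 in the study's annotation, rose from 162 and 158 to 1339 and 1303 CPM. Among sugar carriers 2 of 19 were higher and 3 lower, or 1 lower with library size alone, where sut4 and MST1 lost the call. The sugar transporter genes sfp4 and sfp5 rose by 3.96 and 1.19 and sfp3 fell by 1.99. sut1, a sucrose transporter gene, had 1048, 983, 529 and 537 CPM, under the 2-fold limit.

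Genes for the use of lipid carbon were higher. icl1 (GRMZM2G056369), isocitrate lyase of the glyoxylate cycle, had no count in either control and 91.8 and 88.5 CPM under drought, at least 83.7-fold higher. Its partner mas1 (GRMZM2G102183), malate synthase, had 3.96, 3.91, 466 and 459.7 CPM (log2 fold change 6.87, SE 0.28). Both controls were near the bottom of the measured range and both drought leaves far above it. The thiolase genes GRMZM2G085474 and GRMZM5G866758, for beta-oxidation of fatty acids, rose by 2.05 and 1.67, so all 4 tested genes of this list were higher. Of 15 genes for desaturases and other lipid enzymes 4 were higher and 2 lower. COAC2 and ACC1, acetyl-CoA carboxylases, FatB, a thioesterase, and fad2 GRMZM2G064701 rose by 1.65, 1.07, 1.38 and 1.18. In the other direction fad7 and fad8, the plastid desaturases that make trienoic fatty acids, fell by 3.29 (SE 0.18) and 3.43 (SE 0.22). The more abundant identifier of FAD2, GRMZM2G056252, had 704, 683, 636 and 633 CPM and was not called.

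Nitrogen genes were called in both directions. asn3 (GRMZM2G053669), which makes the nitrogen-rich amide asparagine and which the study names, had 10.5, 20, 4381 and 4291 CPM, a log2 fold change of 8.24 (SE 0.14). By FPKM its controls had 2.7 and 5.31 and its drought leaves 1447 and 1424. Another asparagine synthetase gene, AS (GRMZM2G074589), was at -0.41 and not called. NNR1, a nitrate reductase gene on the study's lists, fell by 1.51, the nitrate transporter gene Nrt1.1 by 1.35 and gdh1, glutamate dehydrogenase, by 1.38, while NIR, NAR2.2 and NRT1.2, at 0.43, -0.54 and -0.42, were not called. Of 18 genes for nitrogen assimilation 2 were higher and 5 lower. Genes for glutamine synthetase went both ways. gln2 (GRMZM2G024104) rose from 51.8 and 55.7 to 283 and 269 CPM, and GLN6 (GRMZM2G050514) and gln1 (GRMZM2G098290) fell by 2.06 and 1.40, all 3 on the study's lists. gln1-3 and Gln1-4 had 369, 357, 415 and 425 CPM and 365, 321, 291 and 317 CPM and were not called. Of 14 genes listed for amino acid breakdown, aldehyde dehydrogenases and aspartate kinase-homoserine dehydrogenases 3 were higher and 3 lower. None of the last group, which serves amino acid synthesis, was called. lkrsdh1 (GRMZM2G181362), which opens lysine catabolism, rose from 86.9 and 71.3 to 396 and 404 CPM. ALDH7 (GRMZM2G130440), a later dehydrogenase, had 148, 148, 1411 and 1419 CPM. The aldehyde dehydrogenase genes rf2c and rf2 fell by 2.54 and 1.35, and rf2b, at -1.17, was not called without control 2.

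Of 13 tested genes for senescence and cysteine proteases 7 were higher and none lower (median 1.47). SGR1 (GRMZM2G103881), a stay-green gene for the enzyme that takes magnesium out of chlorophyll, had 28.3, 22.6, 262 and 244 CPM (log2 fold change 3.28, SE 0.13), and SGR2 (GRMZM2G091837) 41.9, 43.9, 267 and 281 CPM. see2b (GRMZM2G093032), a vacuolar legumain-like protease, had 298, 291, 1453 and 1422 CPM. Its relative see2a had 144, 153, 115 and 124 CPM and was not called. mir3, a cysteine protease gene on the study's list, rose from 1771 and 1615 to 7181 and 7224 CPM, and the related mir2 by 1.47 on the log2 scale. cys1 and cys2, of the same list, were lower by 0.66 and 0.61, below the limit. Of 14 autophagy genes 2 were called (median 0.16), no larger a share than the 16.3% of all tested genes called in either direction. Atg7, which activates the conjugation step, rose by 1.64 (SE 0.14) and the processing protease Atg4b by 1.60 (SE 0.18).

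Counts for protein folding depended on the scaling. Of 25 heat shock protein genes 2 were higher, hsp18f and Hsp70 (GRMZM2G310431), both on the study's lists. HSP90-2 had 569.7, 552, 549 and 536 CPM and hsp70-4 had 1863, 1805, 1710 and 1661 CPM. With library size alone 6 of the 25 were higher. By the study's annotation, 30 heat shock and chaperone genes were chosen on the leaf, so their direction is not independent. Of these 13 were higher and 4 lower. Of 53 chosen on the ear or kernel 2 were higher in the leaf and 1 lower. Of 11 genes with a heat stress factor symbol, Hsf03 and 1 identifier of Hsf05 (GRMZM2G133023) rose, by 1.79 and 1.73, both on the study's lists. The study annotates GRMZM2G133023 as an aluminium induced protein, so its place among the factors rests on the symbol alone. Another identifier of Hsf05, GRMZM2G132971, had 235, 251, 182 and 181 CPM. Neither of the 2 calls among 20 genes for disulfide isomerases and calreticulin held without control 2, and with library size alone 7 were higher. Of 33 genes for ribosomal proteins 1 was higher and 3 lower.

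Protective proteins of water deficit rose by large factors. dhn1 (GRMZM2G079440), a dehydrin of the protective LEA class, had 41, 54.8, 3769 and 3769 CPM, a log2 fold change of 6.33 (SE 0.08). dehydrin3 rose from 7.36 and 11.7 to 640.2 and 652 CPM and MGL3, another LEA gene, from 3.4 and 2.61 to 193 and 189 CPM. These 3 are on the study's lists, whereas RAB15 and aba1 are not. RAB15 (GRMZM2G165901) had 487, 536, 3145 and 3223 CPM and aba1 (GRMZM2G136910), also called asr1, a gene of the ABA-, stress- and ripening-induced family, had 1266, 1279, 3957 and 3924 CPM. RAB15 and aba1 rose by 2.64 and 1.63 on the log2 scale, with no overlap between treatments. Of 13 tested genes 7 were higher and none lower (median 1.92). dehydrin7 had 146, 139, 115 and 104 CPM and was not called.

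In ABA signalling, PP2C phosphatases hold the pathway off until hormone-bound receptors block them. Of 25 PP2C genes 8 were higher and 1 lower. PP2C12 (GRMZM5G818101) had 6.79, 8.26, 129.8 and 132 CPM (log2 fold change 4.14, SE 0.24). 7 of the 8 are on the study's lists, and the other is PP2C28 (GRMZM2G071087), with 32, 33.1, 77.9 and 79 CPM. PP2C24 fell from 19.8 and 25.2 to 6.62 and 6.08 CPM. The receptor genes PYL11 (GRMZM2G133613) and PYL10 GRMZM2G165567 rose by 1.88 and 2.12, while PYL10 GRMZM2G063882 had 151, 158, 52.5 and 52.5 CPM. Members of this receptor family thus changed in both directions. For synthesis, vp14, the carotenoid dioxygenase of the committed step, rose by 1.55. The carotene hydroxylases BCH2 and BCH1 went opposite ways, at 7.64, 6.96, 24.1 and 21.4 CPM and at 48.4, 44.8, 7.95 and 10.8 CPM.

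Aquaporins, the water channels of the plasma membrane and the vacuole, were called in 1 direction only. Of 22 tested, 6 were lower and none higher, 5 of them without control 2. With library size alone 5 were lower and 1 higher, and the median of the list turned from -0.13 to 0.20. pip2-5 (GRMZM2G178693), a plasma membrane channel, had 246, 267, 1.99 and 2.93 CPM, a fall by 6.69 (SE 0.31) on the log2 scale. TIP2-1, a vacuolar channel, had 253, 238, 20.8 and 24.1 CPM, PIP2-6 261, 241, 40 and 36.7 CPM and Lsi1, a silicon channel, 197, 179.6, 27.2 and 26.8 CPM. PIP1-1 and PIP2-1 stood at 1428, 1383, 1828 and 1852 CPM and at 1018, 946, 1116 and 1068 CPM, and neither was called.

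Other genes of ion, wax and redox balance were called one by one. The potassium transporter gene HAK27 (GRMZM2G455817) fell from 58.3 and 43.5 to 4.86 and 7.2 CPM, while HAK24, HAK25, HAK14 and HAK1 rose by 1.05 to 1.93. Of 25 potassium genes 4 were higher and 3 lower, or 1 lower with library size alone. pht1, a phosphate transporter gene, had 683, 694, 179 and 173 CPM. CER1 (GRMZM2G066578), for wax alkanes, rose by 1.54 and fdh1 (GRMZM2G078118), for long fatty acid chains of the cuticle, fell by 1.45, and the other identifiers of both symbols were not called. The catalase genes cat1 and Cat0 moved apart, with 170.1, 164, 530.0 and 529.7 CPM and with 280.5, 281, 102 and 91.4 CPM. fer1, the iron store ferritin, rose from 351 and 348 to 943 and 916 CPM. gst19, a glutathione transferase gene, had 114, 114, 1066 and 1042 CPM and was 1 of the 4 higher genes among 28 of that family, where 3 were higher without control 2 and 8 with library size alone.

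Cytokinin, a hormone that delays leaf senescence, is sensed by histidine kinases that act on response regulators. Of 19 tested genes 9 were lower and 1 higher. The study's leaf lists hold 8 of these 10, and the median of the list turned from -0.17 to 0.17 with library size alone. RR7 (GRMZM2G096171) had 80.9, 68.7, 1.77 and 0.9 CPM (log2 fold change -5.79, SE 0.43), and crr2 (GRMZM2G392101) 38.5, 47.4, 0.662 and 1.13 CPM. crr1 had no count under drought and was at least 11.6-fold lower. The kinase genes HK1b1 and HK1b2 fell by 2.41 and 2.72, and HK1 rose from 18.4 and 14.8 to 98 and 96.3 CPM. Among genes not on the study's lists, crr5 GRMZM6G980248 fell by 1.49. The response regulator genes RR8, RR9 and RR10 differed by at most 0.56 on the log2 scale and were not called. Of 8 cytokinin oxidase genes 2 were higher and 2 lower, neither of the falls without control 2, and cko2 rose by 2.30.

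Jasmonate synthesis starts from the trienoic fatty acids named above. Its list was drawn by symbol and takes in lipoxygenase genes whether or not they serve jasmonate. Of 23 genes in it 6 were higher, 5 of them without control 2, and 5 were lower, 3 of them with library size alone. lox10 (GRMZM2G015419), a lipoxygenase of green leaf volatile formation, had 15048, 14468, 3633 and 3580 CPM, a log2 fold change of -2.03 (SE 0.05). Its treatments were far apart and its replicates close. Other members rose, among them lox3 (GRMZM2G109130) with 4.81, 11.3, 69.3 and 66.9 CPM. lox5 had 5.66, 6.09, 26.9 and 25.7 CPM and aos1 (GRMZM2G067225), allene oxide synthase, 13.3, 10, 96.5 and 100.2 CPM. Without control 2 the rise of lox3 was 3.82 against 3.19 on the log2 scale. opr6 and lox4 fell by 1.84 and 1.75. Of 7 ethylene genes 2 were higher and 1 lower, with 1 in each direction without control 2. acco20 (GRMZM2G126732), an oxidase gene, rose from 2.55 and 4.78 to 33.6 and 32 CPM. Of 12 genes for auxin synthesis and transport 2 were higher and 3 lower. PIN10a rose by 2.88 and PINY by 2.20, and PIN5c fell by 3.45, and the study lists PINY and PIN5c. PIN5a and PIN1a, at -1.33 and -1.36, were called only with TMM scaling, PIN1a also only with control 2.

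Among transcription factors, the calls in the NAC family, known for regulators of senescence and drought, were mostly higher. Of 25 tested by symbol 7 were higher and none lower, with a median of 1.10, and 6 were higher without control 2 and 9 with library size alone. The study names 5 NAC genes as induced in the ear leaf. A search of its gene descriptions for NAC missed some of its NAC genes. Of the 3 so found among genes it chose on the leaf, 1 was higher and 1 lower. Of 13 found among those chosen on the ear or kernel, 8 were higher in the leaf and 1 lower. NAC75 (GRMZM2G100583), which is on none of the study's leaf lists, had 148, 144, 793 and 801 CPM (log2 fold change 2.44, SE 0.08), and NAC40 (GRMZM5G898290) 16.4, 16.1, 94.3 and 93.4 CPM. Families with members on both sides were bZIP, with 4 of 38 higher and 5 lower (2 lower with library size alone), and MYB, with 3 of 29 higher and 4 lower (1 and 3 without control 2). bZIP84 (GRMZM2G361611) fell from 39.1 and 40.5 to 2.21 and 4.05 CPM and bZIP45 (GRMZM2G093020) rose from 19.8 and 30.9 to 151 and 156 CPM. MYB167 had 34.5, 31.8, 3.09 and 2.48 CPM. In the MADS family 1 of 34 genes was called, and not without control 2. DBP2 (GRMZM2G055204), of the AP2/ERF family, had 1013, 968, 239 and 253 CPM.

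The florigen genes, whose products in other plants move from leaf to shoot tip to start flowering, were lower in 3 of 7 tested members. ZCN8 (GRMZM2G179264), the leaf florigen of maize, had 29.7, 20.9, 0.883 and 0.675 CPM, a log2 fold change of -4.99 (SE 0.60). ZCN7 (GRMZM2G141756) had 24.6 and 23.9 CPM in the controls and at most 3 counts in each drought leaf, at least 36.3-fold lower. ZCN14 fell by 1.30 with TMM scaling only. The other 4 tested genes of the family had at most 5.22 CPM in any ear leaf library.

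Defence genes were called in both directions. Benzoxazinoids are the stored toxins of young grasses, made from indole by a chain of oxidations and kept as glucosides. BX4 (GRMZM2G172491) and BX5 (GRMZM2G063756), cytochromes P450 of the chain, had 188, 173, 5.3 and 6.08 CPM and 249, 243, 31.3 and 27.5 CPM. BX3 and bx6, a further P450 and a dioxygenase, fell by 4.68 (SE 0.42) and 3.93 (SE 0.20), and bx2 was at least 10.4-fold lower. The glucosyltransferase genes at the end of the chain were not called lower. bx9 (GRMZM2G161335) rose from 64.2 and 65.2 to 233 and 231 CPM. bx8 had 195, 200.1, 137 and 132 CPM, lower under drought without overlap but below the 2-fold limit, and was not called. Of 10 tested genes 5 were lower and 1 higher (median -3.50). bx1, at the head of the chain, had at most 0.566 CPM in each library.

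Among pathogenesis-related proteins and inhibitors 7 of 24 were higher and 3 lower. The chitinase genes chiB (GRMZM2G005633) and chiA (GRMZM2G051943), for enzymes that cut fungal walls, were higher and are on none of the study's leaf lists. chiB had 19.2, 15.2, 583 and 566 CPM (log2 fold change 5.03, SE 0.15) and chiA 13, 9.57, 296 and 306 CPM. PR-1 rose from 164 and 164 to 689 and 673 CPM and MPI, a proteinase inhibitor, from 254 and 228 to 746 and 758 CPM. In the other direction PR-5 (GRMZM2G402631), a thaumatin-type gene on the study's lists, had 1848, 1745, 105 and 112 CPM, and cc3, a cystatin, fell by 2.06. Hm2 (GRMZM2G131243), a reductase gene for resistance to a fungal toxin, fell from 329 and 322 to 9.49 and 11 CPM. Among wall genes, 3 of 20 for laccases and monolignols were higher and 1 lower, 2 of 11 expansins were higher, 1 of them without control 2, and 2 of 32 for cellulose and other wall polymers were higher and 1 lower. Laccase-7 rose by 4.03 (SE 0.21), xet1 by 2.46 and the expansin gene expB8 (GRMZM2G013002) from 26.3 and 24.4 to 241 and 238 CPM. CNR10 (GRMZM2G325477), a cell number regulator, fell by 6.79 (SE 0.55), and CNR4 by 3.54.

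**Figure D3:**
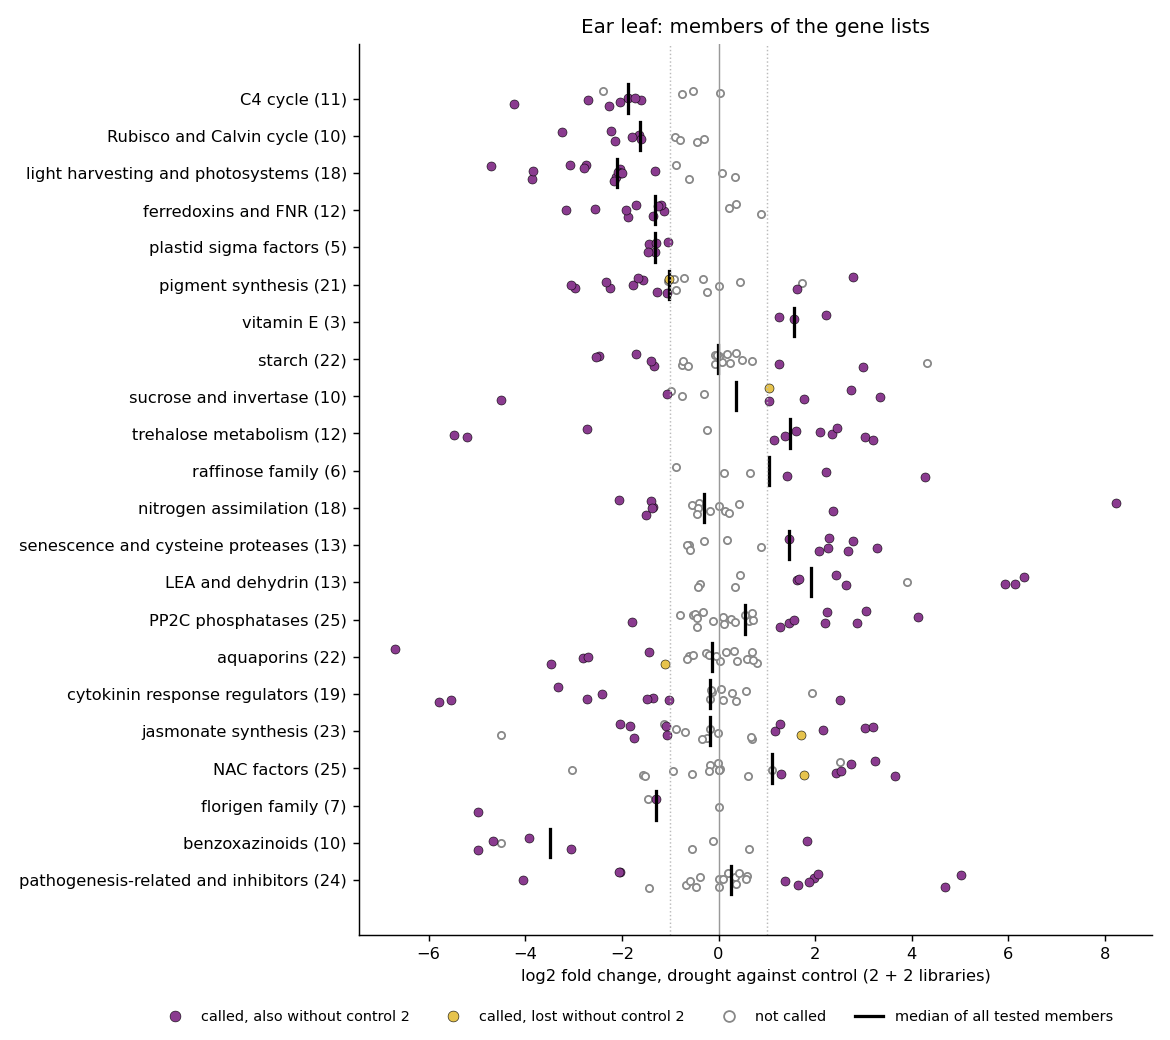
Each point is the log2 fold change of 1 tested member of a gene list in the ear leaf, and the black bar is the median over all tested members, whose number stands in brackets. Members known only by a lower bound are counted but not drawn, vertical scatter has no meaning, and the dotted lines mark a 2-fold change. The photosynthesis lists lie left of 0 with medians from -2.11 to -1.31, and LEA, senescence and NAC genes lie mostly right of it with medians of 1.92, 1.47 and 1.10.

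Many of the strongest responders had no name in the files or tables used. Of the 10 largest rises among genes outside the study's lists with more than 3 counts in every leaf library, none had one, and of the 10 largest falls only pip2-5 did. GRMZM2G078469 had 1.7, 1.74, 532 and 539 CPM, a log2 fold change of 8.27 (SE 0.46), and GRMZM2G078472 had at most 1 count in each control and 136 and 148 CPM under drought, at least 132-fold higher. GRMZM2G074546 fell from 553 and 557 to 1.99 and 1.13 CPM and GRMZM2G034471 from 698 and 689.8 to 2.21 and 2.25 CPM. Of the 10 largest rises in mean CPM outside the study's lists, 3 had a name, RAB15, aba1 and nuc (GRMZM2G112968), which had 259.8, 237, 2095 and 2067 CPM. Of the 10 largest falls 5 did, namely pep1, pdk1, lox10, the aldolase GRMZM2G046284 and gpb1.

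Whether a leaf response differed from that of another organ was asked with the interaction of organ and treatment. Over all genes the drought effect differed between leaf and kernel for 11961 (45.8%) and between leaf and young ear for 9362 (35.9%) at an adjusted p under 0.05. Of the 3673 leaf calls that did not need control 2 (14.1% of the tested genes), 2774 (75.5%) differed from the kernel and 2829 (77.0%) from the young ear. Since these genes were picked for a large effect in the leaf, the shares describe them and are not a sign of organ specificity. The kernel had 7073 calls of its own (27.1%) and the young ear 1886 (7.23%). Of the 3673 genes, 1479 were also called in the kernel, 382 of them in the opposite direction, and 463 in the young ear, 153 of them opposite. The ear is from an earlier stage, so organ and stage cannot be told apart there.

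Named leaf responses fell into both kinds. For pep1 the log2 fold change was 0.28 in the kernel and -0.14 in the young ear, and for SPS 0.76 and 0.67, and both differed from the leaf (interaction adjusted p at most 8.01e-11). lox10 rose by 2.33 in the kernel and fell in the leaf (interaction adjusted p = 6.89e-24). see2b fell by 1.06 and expB8 by 3.19 in the kernel, against rises in the leaf. For cab-m1, Cab-m7 and cab-m9 the young ear had rises of 1.75, 2.24 and 1.90. Other leaf responses had a like size in the kernel, and no difference was detected. chiA had log2 fold changes of 4.69 in the leaf and 4.66 in the kernel (difference adjusted p = 0.988), lkrsdh1 of 2.32 and 2.30, and NAC75 of 2.44 and 2.79. For pip2-5 they were -6.69 and -4.97 (adjusted p = 0.197), with few counts left under drought.

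**Figure D4:**
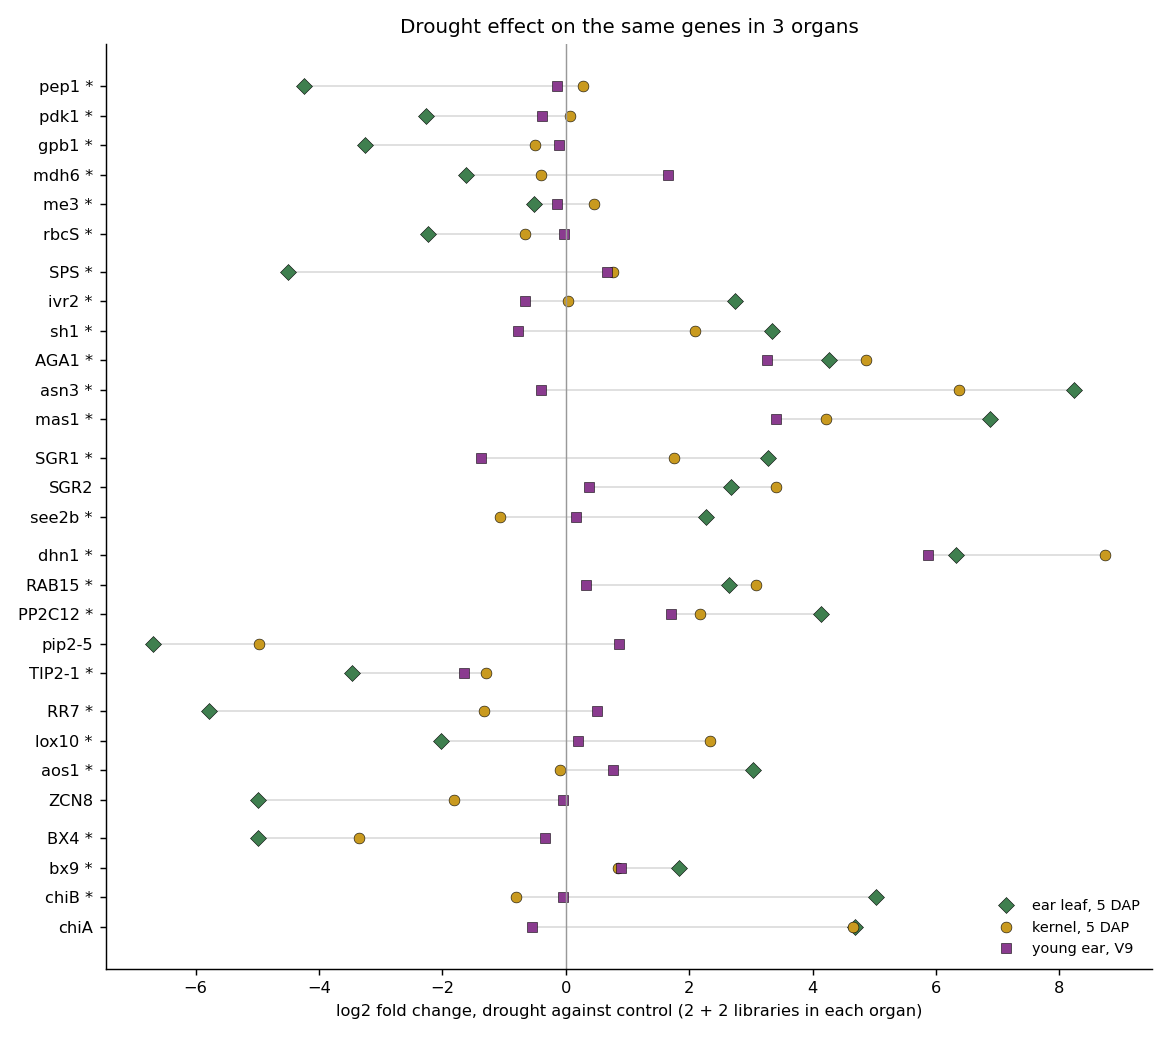
Log2 fold changes of drought over control for the genes of the plot of levels, in the ear leaf (diamonds), the kernel (circles) and the young ear (squares). An asterisk marks genes whose leaf and kernel effects differ (interaction adjusted p under 0.05). pep1, SPS and ivr2 lie farther from 0 in the leaf than in the other organs, dhn1 and AGA1 lie right of 0 in all 3 organs, and lox10 and see2b lie on opposite sides in leaf and kernel.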

How the data were processed

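Messenger RNA of the 12 libraries was enriched with oligo(dT), sequenced and aligned by the authors. The expected counts deposited by the authors are estimated reads per gene, not normalized, and 45.6% of the values above 0 in the files were not whole. FPKM, as deposited by the authors, scale these estimates by gene length and mapped reads. The counting program was not given in the sources used here. Expected counts were rounded, and genes absent from a library's list were set to 0, which gave 34423 genes, 34303 with a count. Strand use in counting was not given, so antisense and overlapping genes are uncertain.

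Group means of all 6 groups were modelled for the 26090 genes kept by filterByExpr (edgeR 4.0.16 with TMM scaling and the quasi-likelihood test, R 4.3.3). In control 2, a level of 1.305 CPM equals the floor of 3 counts, and in the other ear leaf libraries at most 0.849 CPM does. TMM factors were 0.6485, 0.6704, 0.8307 and 0.8346. Standard errors and p-values rest on a spread between pools that was estimated over all 6 groups, not on the ear leaf pairs alone. The common biological coefficient of variation was 0.0624, against 0.107 between the control leaves and 0.0186 between the drought leaves. On data simulated from the ear leaf comparison, with 26032 genes fitted, 195 of 200 changed genes were recovered (97.5%) with 0 false calls. The simulation gave every gene the same spread, below that of the control leaves. It changed only these 200 genes, all above a minimum level and about equally up and down. It therefore cannot show how many calls in the data are false. Alternatives were DESeq2 1.42.0, limma 3.58.1 on log2(FPKM + 1) and log2(FPKM + 0.1), the ear leaf fitted alone, other scalings, filters and criteria, a replicate block, and fits that omit 1 ear leaf library. The labels do not say whether same-numbered libraries, including those of leaf and kernel, share plants. The deviations of same-numbered control and drought ear leaves were not correlated (-0.0193), so no pairing was used.

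Gene lists were formed from symbols and synonyms of the RefSeq annotation of Zm-B73-REFERENCE-NAM-5.0, matched by identifier, for 2366 tested genes with a symbol. The 71 lists hold 1178 of them. The trehalose list uses the annotation in the study's tables. RefSeq descriptions and promoter sequences were not used here, so the lists meant to be drawn from descriptions were drawn from symbols, and the promoter motif counts were not made. Genes, lists and comparisons were chosen with earlier results of these data known, and the lists were completed after values were seen, so they are described and not tested. Within the calls that also held without control 2 and did not overlap, genes were named by size of rise or fall, by level where the lower treatment had at most 3 counts, by change of mean CPM, and within each list by largest change and highest level. Further list members were named after their values were seen. Of the tested identifiers, 133 share their counts with another, and 417 of 1630 clone-based identifiers pool more than 1 gene model and are not named. Python 3.11.15 was used for tables.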

Additional observations from a re-analysis of the deposited data

Results flagged for a closer look

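The drought effect in the ear leaf differed from that in other organs for most of the called genes. Of the 3673 ear leaf calls that did not need control 2, 2774 (75.5%) differed from the kernel and 2829 (77.0%) from the young ear. The interaction test of edgeR was used, at an adjusted p under 0.05. Over all tested genes 45.8% and 35.9% differed. The counts among the calls describe genes chosen for a large effect in the leaf.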

How the results depend on the processing

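The counts of 1861 higher and 2397 lower genes moved by more than 1.5 times with library size in place of TMM (3099 higher and 1568 lower) and with TREAT, which tests for a change beyond 2-fold (931 and 1165). limma on log2(FPKM + 1) and on log2(FPKM + 0.1) gave 1376 and 1053 lower genes. Leaving out a library gave 1525 to 1635 higher and 1969 to 2231 lower genes, with the lone library of a treatment assumed to vary like the other groups. The replicate block gave 1870 and 2385. No call of the named genes was lost under it. Of 270 genes followed through 15 alternatives, 236 were called. None reversed except, without control 2, the plastid-hit genes GRMZM2G455413 (0.52 on the log2 scale, down to -8.18 without drought 2), GRMZM5G808939 (6.90, down to -6.92 without control 1) and GRMZM5G884960 (0.03, down to -11.31 without drought 1), where control 1 had at most 8 counts. Calls were lost for 19 of them with library size alone, 45 with TREAT, and 53 with limma on log2(FPKM + 0.1). The depth of control 2 and the spread of the control pair limit genes with few counts. The causes were not tested.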
